A study of Mus musculus with 10 samples.

Results

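The genes described here are 10 genes of smooth muscle and of pericytes, the contractile cells that wrap small vessels: Acta2, Tagln, Myh11, Cnn1, Des, Rgs5, Cald1, Mylk, Actg2 and Tpm2. They were taken by symbol from tables that list 35087 gene symbols, and all 10 were found and passed the filter on low counts. RNA came from granulosa cells cut by laser microdissection from ovaries of wild-type (WT) female C57B6/J mice aged 3 weeks. One group received 150 mg/kg of the antioxidant N-acetyl-L-cysteine (NAC) by intraperitoneal injection on 3 days in a row, the other received normal saline, and ovaries were taken on day 4 counted from the first injection. The groups hold 4 NAC and 6 saline libraries, all given as batch 1, prepared from polyadenylated RNA by GEO-seq, a low-input protocol for captured tissue areas. The labels name no animal for a library, so p-values measure the spread between captures and may be too small if captures share an animal.

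Smooth muscle contracts when myosin light chain kinase phosphorylates the myosin motor, which then pulls on thin filaments of actin and tropomyosin under the control of caldesmon and calponin. In the ovary these genes are known from the walls of blood vessels and from the outer theca, the sheath of contractile and fibroblast-like cells outside the follicle's basement membrane. Granulosa cells lie inside that membrane, in a layer without vessels, and are not a tissue in which the smooth muscle forms of these proteins are usually abundant.

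Libraries held 116461 (NAC 3) to 2488408 (saline 6) estimated reads. NAC 2 and NAC 3 were the shallowest, at 509945 and 116461 reads, and had reads for 84.8% and 85.1% of the 10945 genes tested, against 97.7% to 99.5% in the other libraries. Values are CPM (reads of a gene scaled to a common library total) with TMM factors, so that 1 read stood for 8.05 CPM in NAC 3, and a listed 0 there allows up to 24.2 CPM (3 reads). For saline libraries the same limit was 1.33 to 2.08 CPM. These limits cover counting error only, since the reads carry no molecular identifiers and copies made by amplification are counted again. Markers of granulosa cells were abundant in every capture, with a summed level of 7959 to 22159 CPM over 11 genes in NAC and 13256 to 41732 CPM in saline, and markers of other ovarian cells were present too. In such bulk captures, fewer cells of a type and less RNA per cell cannot be told apart.

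Summed over the 10 genes, NAC libraries 1 to 4 stood at 532, 1327, 96.7 and 295 CPM, and saline libraries 1 to 6 at 46.4, 204, 33.8, 66.9, 259 and 499 CPM. NAC 2 was far above every other capture, and saline 6 was close to NAC 1, so the groups overlapped. The means were 563 ± 540 CPM in NAC (SD, n = 4) and 185 ± 179 CPM in saline (SD, n = 6). Without NAC 2 and NAC 3 the NAC mean was 414 CPM. The captures also differed in which gene contributed most. Acta2 led only in saline libraries, with 49.7% of the sum in saline 6, 43.5% in saline 5 and 26.3% in saline 4. Cald1 led in NAC 1 with 32.2%, in NAC 4 with 37.1%, in saline 2 with 29.0% and in saline 3 with 36.0%. Mylk led in NAC 2 with 26.9% and in saline 1 with 38.8%. In NAC 3, Cald1 and Mylk shared the lead with 5 reads each, 41.7% of the sum for Cald1. The plot of CPM by library shows each gene on its own.

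**Figure D1:**
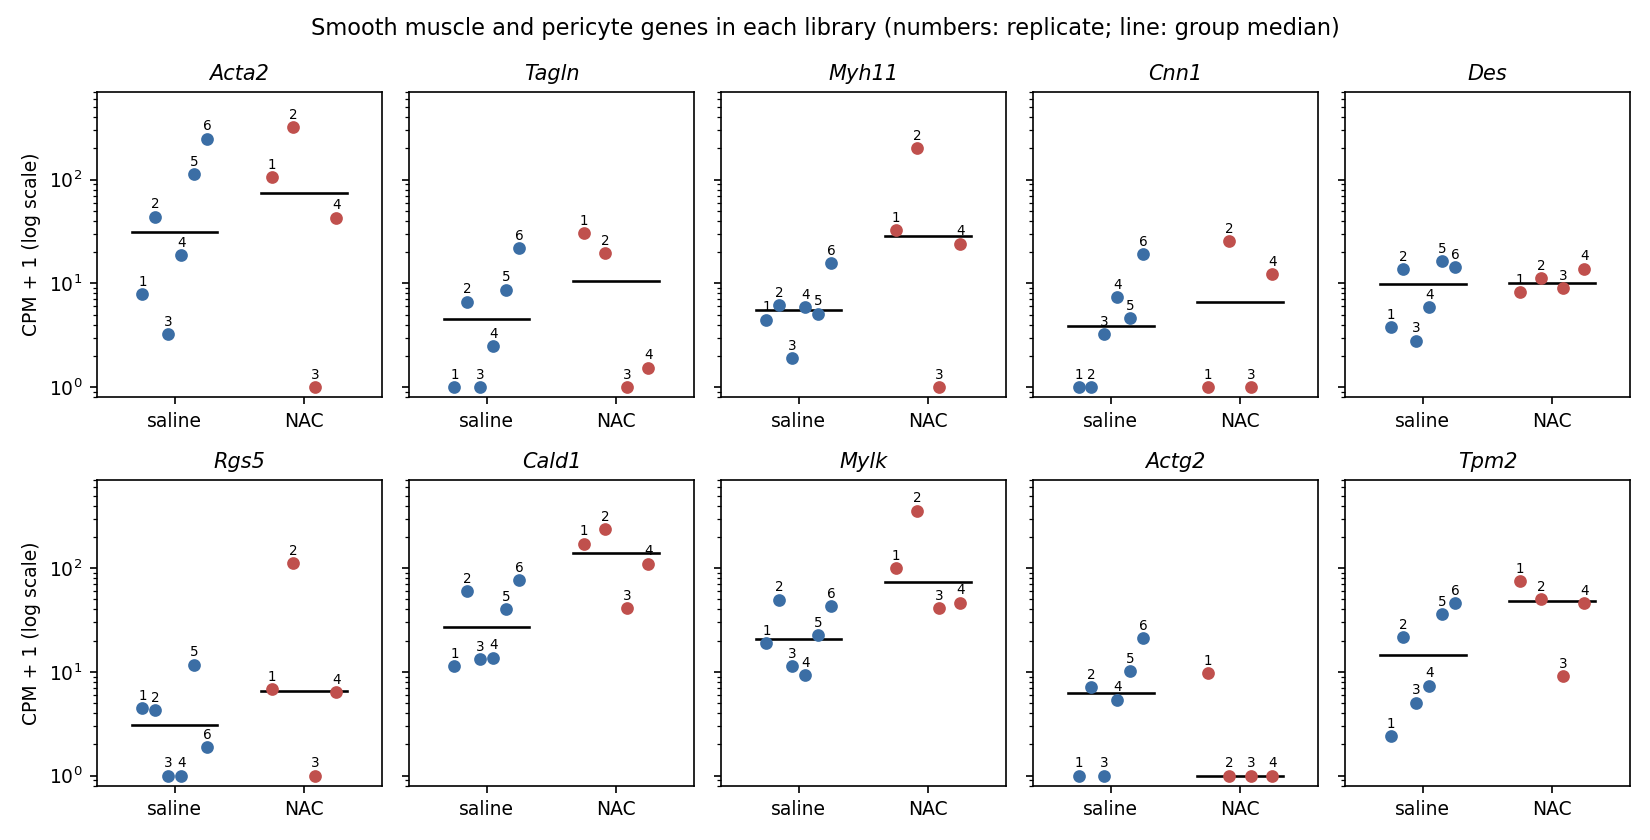
CPM plus 1 (log scale) of the 10 genes in each saline (blue) and NAC (red) library, numbered by replicate, with a line at the group median. Cald1, Myh11 and Tpm2 have 3 of 4 NAC libraries above all 6 saline libraries, while Acta2, Tagln, Cnn1, Des and Actg2 are mixed, and NAC 2 is the highest point for Acta2, Myh11, Cnn1, Rgs5, Cald1 and Mylk.

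None of the 10 genes was called between NAC and saline in edgeR's quasi-likelihood test at an adjusted p under 0.05, a call that 0.0731% of all genes tested received (0.0183% on the higher side). No gene had groups that did not overlap, a pattern seen in 5.38% of genes tested (1.96% with NAC higher). Log2 fold changes were positive for 9 of 10, against 51% of all genes tested, with a median of 1.24 against 0.02 over all genes. They were above 1 for 6 of 10, against 9.84% of all genes. At an unadjusted p under 0.05, 4 of the 10 were higher in NAC and none lower, against 7.82% of all genes on the higher side. The 10 genes varied together across captures and were chosen with earlier results of these data known. These counts are therefore not 10 independent outcomes. Other tools drew the line elsewhere. DESeq2 called 3 of the 10 genes (Myh11, Mylk and Cald1, all higher), against 441 of 21234 genes in all. It gave no adjusted p for Cnn1, Rgs5 and Actg2. The limma-voom fit with sample quality weights called Cald1, against 476 of 10945 genes in all. With NAC 2 left out, DESeq2 called none of the 10 genes (Rgs5 had no adjusted p), against 360 of 21181 genes in all. The edgeR median was then 0.78. The voom call of Cald1 (adjusted p = 0.0498) was not rerun without NAC 2.

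Acta2 encodes smooth muscle alpha-actin, the actin of the contractile thin filament (chromosome 19, 34241090 to 34255590, minus strand, GRCm38; the intervals given here span each gene's exons, introns and UTRs). Its level was 105, 319, 0 and 41.9 CPM in NAC 1 to 4. In saline it ranged from 2.25 to 248 CPM with a median of 30.2 CPM. The saline captures thus spanned 110-fold by themselves, with saline 5 and 6 high and saline 1 and 3 low, and the groups overlapped throughout. The group means were 117 ± 142 CPM in NAC (SD, n = 4) and 71.7 ± 95.5 CPM in saline (SD, n = 6). The log2 fold change was 0.76 ± 1.18 (SE), with an adjusted p of 0.781 in edgeR, and without NAC 2 it was -0.31.

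The Acta2 promoter is shown because its control elements are well described: serum response factor binds CArG boxes (a pair of C, an A/T-rich core and a pair of G) and TEAD factors bind the MCAT word CATTCC. RefSeq promoter sequences (GRCm38.p6, 250 bases before to 50 after the start) matched 7 of the 10 genes, 8 promoters in all, since Cald1 has 2. Tagln, Myh11 and Actg2 had no promoter sequence there and were not searched, so the counts below do not cover them. Both strands were searched. The strict CArG box, with all 6 core bases A or T, was in 0 of 8 promoters and in 1.63% of 32851 promoters. A relaxed form with at least 5 of 6 core bases A or T was in 1 of 8, against 9.98% of all promoters, and that one was Acta2, with CCCTATATGG at -84 to -75 and CCTTGTTTGG at -34 to -25, counted from 0 at the annotated start. CATTCC or its reverse complement GGAATG was in 3 of 8, against 14.7% of all promoters: Acta2 (-146 to -141), Cald1 (-153 to -148) and Mylk (-158 to -153). The word TATAA was in 2 of 8, against 24.9% of all promoters, in Acta2 and in the second Cald1 promoter. In Acta2 it lay at 10 to 14, that is after the annotated start from which these positions are counted. A match is a description of letters, not evidence of binding. Capitals mark the relaxed CArG matches, the CATTCC word on either strand and TATAA in the 3 promoters that hold CATTCC, printed 5′ to 3′ on the gene's strand, for Acta2 at chr19:34255324-34255623 (minus), Cald1 at chr6:34598254-34598553 (plus) and Mylk at chr16:34784700-34784999 (plus).
Acta2: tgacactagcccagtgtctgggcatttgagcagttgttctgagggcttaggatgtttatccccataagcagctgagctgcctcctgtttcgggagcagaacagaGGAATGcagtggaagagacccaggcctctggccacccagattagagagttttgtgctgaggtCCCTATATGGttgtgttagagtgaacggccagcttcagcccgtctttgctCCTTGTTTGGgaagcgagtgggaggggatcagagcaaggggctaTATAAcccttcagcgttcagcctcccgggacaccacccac
Cald1: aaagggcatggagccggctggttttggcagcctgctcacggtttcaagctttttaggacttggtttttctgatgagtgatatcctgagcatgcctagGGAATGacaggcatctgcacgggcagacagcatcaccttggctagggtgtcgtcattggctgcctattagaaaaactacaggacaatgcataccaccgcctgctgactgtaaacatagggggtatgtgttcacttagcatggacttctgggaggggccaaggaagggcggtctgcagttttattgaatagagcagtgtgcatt
Mylk: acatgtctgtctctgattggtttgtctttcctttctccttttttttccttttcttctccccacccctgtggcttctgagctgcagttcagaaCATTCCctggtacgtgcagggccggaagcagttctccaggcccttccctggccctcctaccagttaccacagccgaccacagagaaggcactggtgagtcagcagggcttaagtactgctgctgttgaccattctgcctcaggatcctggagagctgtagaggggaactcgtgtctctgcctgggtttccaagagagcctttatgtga

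Actg2, the gamma-actin of enteric and other visceral smooth muscle (chromosome 6, 83512905 to 83536265, minus strand), was the one gene with a negative fold change. It had reads in 1 NAC library, NAC 1 at 8.66 CPM, and was at 0 in NAC 2, 3 and 4. Saline libraries ranged from 0 to 20.0 CPM with a median of 5.26 CPM, with saline 6 highest and saline 1 and 3 at 0. The groups overlapped, and only 12 reads in NAC and 85 in saline stood behind the comparison. The log2 fold change was -1.20 ± 1.37 (SE; adjusted p = 0.680 in edgeR), and -3.57 with the number of genes detected as a covariate. Without NAC 1 no NAC library held a read, and the fitted value of -6.45 is then no bound. Of the 31-base words of its longest coding transcript, 1.46% also occur in other genes, so reads from that share can be split between near-identical sequences.

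Tagln encodes transgelin, an actin-binding protein used as an early smooth muscle marker (chromosome 9, 45929619 to 45936058, minus strand). Its level was 29.6, 18.4, 0 and 0.537 CPM in NAC 1 to 4, and 0 to 20.9 CPM in saline with a median of 3.56 CPM. NAC 4, the deepest NAC library, was near 0 while NAC 1 exceeded all saline captures, and saline 6 lay between NAC 1 and NAC 2. In edgeR this gave 1.15 ± 1.17 (SE) as log2 fold change, with an adjusted p of 0.641. Without NAC 1 it was 0.069, and with voom weights 0.088.

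Cnn1, calponin of differentiated smooth muscle (chromosome 9, 22099216 to 22109630, plus strand), was at 0, 24.6, 0 and 11.3 CPM in NAC 1 to 4. Saline libraries ranged from 0 to 18.2 CPM with a median of 2.92 CPM. NAC 1, which was high for Acta2 and Tagln, had no Cnn1 read, and the groups overlapped. Its log2 fold change was 0.89 ± 1.23 (SE; adjusted p = 0.742 in edgeR), and -0.08 without NAC 2.

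Cald1 encodes caldesmon, an actin- and tropomyosin-binding regulator with both a smooth muscle form and a widely expressed non-muscle form, which a gene-level value does not separate (chromosome 6, 34598500 to 34775473, plus strand). It stood at 171, 238, 40.3 and 110 CPM in NAC 1 to 4, and between 10.4 and 76.0 CPM in saline with a median of 26.1 CPM. NAC 1, 2 and 4 were above every saline library, and NAC 3, with 5 reads, fell within the saline range. Means were 140 ± 84.3 CPM (SD, n = 4) and 35.0 ± 28.0 CPM (SD, n = 6), and without NAC 2 the NAC mean was 107 CPM. The log2 fold change was 2.03 ± 0.55 (SE; adjusted p = 0.107 in edgeR), 2.04 with an adjusted p of 0.0212 in DESeq2, and 1.68 with an adjusted p of 0.0870 in DESeq2 without NAC 2.

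Tpm2 encodes beta-tropomyosin, the coiled coil that lies along the actin filament (chromosome 4, 43514711 to 43523765, minus strand). Its level was 73.6, 49.1, 8.05 and 45.1 CPM in NAC 1 to 4. In saline it ranged from 1.38 to 44.9 CPM with a median of 13.5 CPM. NAC 1, 2 and 4 were above all saline libraries, NAC 4 by a narrow margin over saline 6, and NAC 3 rested on 1 read. For Tpm2 the log2 fold change was 1.33 ± 0.71 (SE; adjusted p = 0.362 in edgeR).

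Myh11 encodes the smooth muscle myosin heavy chain, the motor and the most lineage-restricted marker among the 10 genes (chromosome 16, 14194535 to 14291372, minus strand). It stood at 31.7, 201, 0 and 23.1 CPM in NAC 1 to 4, and between 0.901 and 14.7 CPM in saline with a median of 4.49 CPM. NAC 1, 2 and 4 were above every saline library, whereas NAC 3 had no read, which at its depth allows more than any saline value. Means were 63.9 ± 92.2 CPM (SD, n = 4) and 5.53 ± 4.73 CPM (SD, n = 6), and without NAC 2 the NAC mean was 18.3 CPM. Myh11 had the largest log2 fold change of the 10 genes, 3.55 ± 0.79 (SE; adjusted p = 0.0748 in edgeR). DESeq2 gave 3.57 with an adjusted p of 0.00172. Without NAC 2 the log2 fold change was 1.89 in edgeR, and 1.92 with an adjusted p of 0.214 in DESeq2.

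Mylk encodes myosin light chain kinase, the enzyme that switches the motor on (chromosome 16, 34745210 to 35002420, plus strand), and is also expressed in non-muscle cells. Its level was 98.8, 356, 40.3 and 45.7 CPM in NAC 1 to 4, and 8.30 to 48.5 CPM in saline with a median of 19.8 CPM. NAC 1 and 2 exceeded all saline libraries, and NAC 3, which rested on 5 reads, and NAC 4 lay in the upper part of the saline range. The log2 fold change was 2.47 ± 0.60 (SE; adjusted p = 0.0842 in edgeR), and 2.48 with an adjusted p of 0.00567 in DESeq2. Without NAC 2 it was 1.37 in edgeR, and 1.38 with an adjusted p of 0.165 in DESeq2.

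Des encodes desmin, the intermediate filament of muscle (chromosome 1, 75360329 to 75368579, plus strand). Its level was 7.21, 10.2, 8.05 and 12.9 CPM in NAC 1 to 4, of which NAC 3 rested on 1 read, and 1.80 to 15.4 CPM in saline with a median of 8.80 CPM. All 4 NAC libraries lay inside the saline range. NAC over saline gave a log2 fold change of 0.21 ± 0.74 (SE; adjusted p = 0.911 in edgeR), and leaving out NAC 4 turned it to -0.10 and leaving out saline 3 to -0.05.

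Rgs5, a regulator of G-protein signalling and a standard pericyte marker (chromosome 1, 169655501 to 169695813, plus strand), was at 5.77, 111, 0 and 5.37 CPM in NAC 1 to 4. Saline libraries ranged from 0 to 10.8 CPM with a median of 2.09 CPM. A single capture, NAC 2, was high, and NAC 1, 3 and 4 lay within the saline range. The log2 fold change of 3.33 ± 1.16 (SE; adjusted p = 0.185 in edgeR) was 0.61 without NAC 2, and the NAC mean went from 30.4 to 3.71 CPM.

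**Figure D2:**
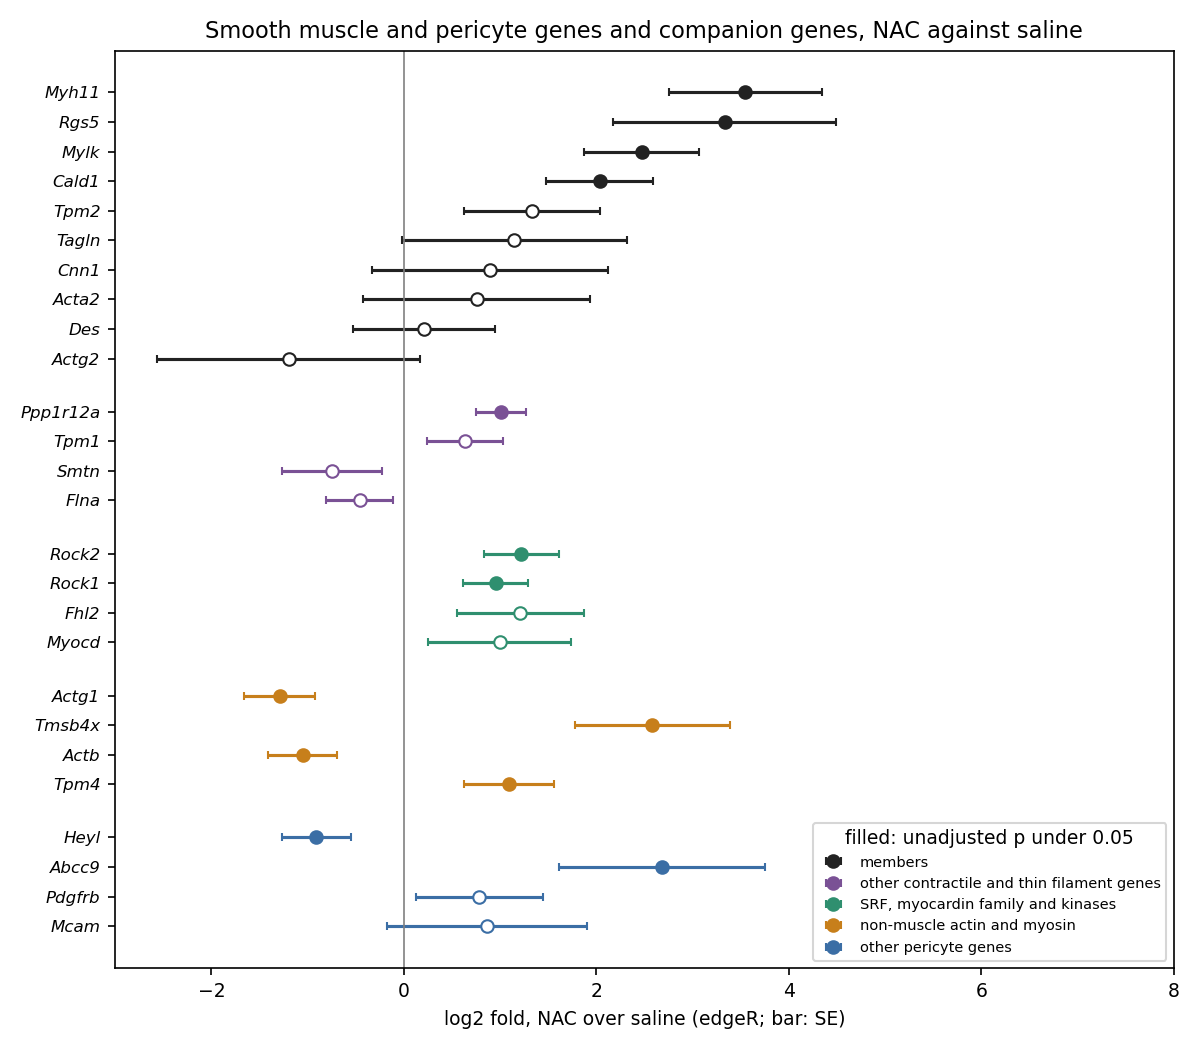
Log2 fold change, NAC over saline, with its SE from edgeR, for the 10 genes (black, "members" in the key) and for companion genes by list; filled points have an unadjusted p under 0.05. Myh11, Rgs5, Mylk and Cald1 are the filled points among the 10 genes, from 3.55 down to 2.03, and Actg2 alone is below 0.

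Levels of different genes were compared per length, as deposited TPM (transcript abundance corrected for length) over the 6 saline libraries. Acta2 was highest at 43.9 ± 57.9 TPM (SD, n = 6), then Cald1 at 33.2 ± 30.2 and Tpm2 at 19.6 ± 18.8 TPM. Actg2 (6.44 ± 6.57 TPM), Cnn1 (5.40 ± 8.09), Tagln (4.64 ± 5.41), Mylk (3.37 ± 2.45) and Des (2.99 ± 2.00) followed. Myh11 at 0.866 ± 0.708 TPM and Rgs5 at 0.780 ± 0.942 TPM were lowest. Of the 9 pairs of neighbours in this order, 0 differed beyond their spread in a two-sided exact sign-flip permutation test. The smallest p that 6 libraries allow is 0.03125, reached by Tpm2 over Actg2 and by Des over Myh11, with adjusted p = 0.141 over the 9 pairs. The place of several genes depended on the length used. For Cald1 the deposited tables give 66.6 to 182.5 bases while its longest annotated transcript has 4777. Deposited lengths also varied between libraries for other genes, from 280.1 to 2098 bases for Tpm2 and from 452.6 to 1098.2 bases for Cnn1. Per kilobase of the longest transcript, Acta2 remained highest at 35.3 CPM per kilobase, and Tpm2 (8.60) came before Cald1 (7.33). On that scale Cnn1 (2.13) came after Mylk (3.16) and Des (2.80).

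Across the 10 captures the genes varied together. Of 45 pairs, 43 had a positive Pearson's r of log2 CPM, with a median r of 0.598. By permutation tests adjusted over the 45 pairs, 11 passed with Pearson's r and 8 with Spearman's rho, 6 of them with both. Within the 6 saline libraries 43 pairs were again positive with a median r of 0.717. There 18 pairs had an unadjusted exact p under 0.05 with Pearson's r and 0 passed after adjustment, with smallest adjusted p of 0.0536 for Pearson's r and 0.05 for Spearman's rho in exact permutation tests. All captures share the depth differences given above, and without NAC 2 and NAC 3 the count with Pearson's r was 7. Leaving out any 1 library gave 3 (saline 3) to 10 (NAC 3) pairs: 4 without NAC 2 or saline 2, 6 without NAC 1, saline 5 or saline 6, 7 without saline 1 or saline 4, and 9 without NAC 4.

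The tightest pairs joined thin-filament regulators with the kinase and the actin with transgelin. Cald1 and Mylk had r = 0.914 and rho = 0.915 (permutation tests, adjusted p = 0.00225 and 0.0117), with r = 0.954 after leaving out the 2 libraries farthest from the median of Cald1. Cald1 and Tpm2 had r = 0.913 and rho = 0.952 (permutation tests, adjusted p = 0.00405 and 0.0036), with r = 0.912 after the same step. Acta2 and Tagln had r = 0.876 and rho = 0.890 (permutation tests, adjusted p = 0.0174 and 0.0213), with r = 0.875 after leaving out the 2 libraries farthest from the median of Acta2. Within saline these pairs had r = 0.882, 0.932 and 0.977. In each of them saline 2, 5 and 6 were high and saline 1, 3 and 4 low, or nearly so.

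Other pairs rested on few captures. Myh11 and Rgs5 had r = 0.811 and rho = 0.656 (permutation tests, adjusted p = 0.0366 and 0.122), but r was 0.475 without the 2 libraries farthest from the median of Myh11 and was 0.111 within saline. For Myh11 and Mylk, r = 0.794 went to 0.345 after the same step. Acta2 and Myh11 (r = 0.825, rho = 0.794) kept r = 0.680, with r = 0.860 in saline. Rgs5, the pericyte gene, was the least tied to the others in saline, with a median r of 0.344 over its 9 partners, whereas Tagln had 0.931 and Tpm2 0.923. Cnn1 and Actg2 had the lowest medians over all 10 captures, 0.351 and 0.182, although for Actg2 the saline median was 0.862.

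**Figure D3:**
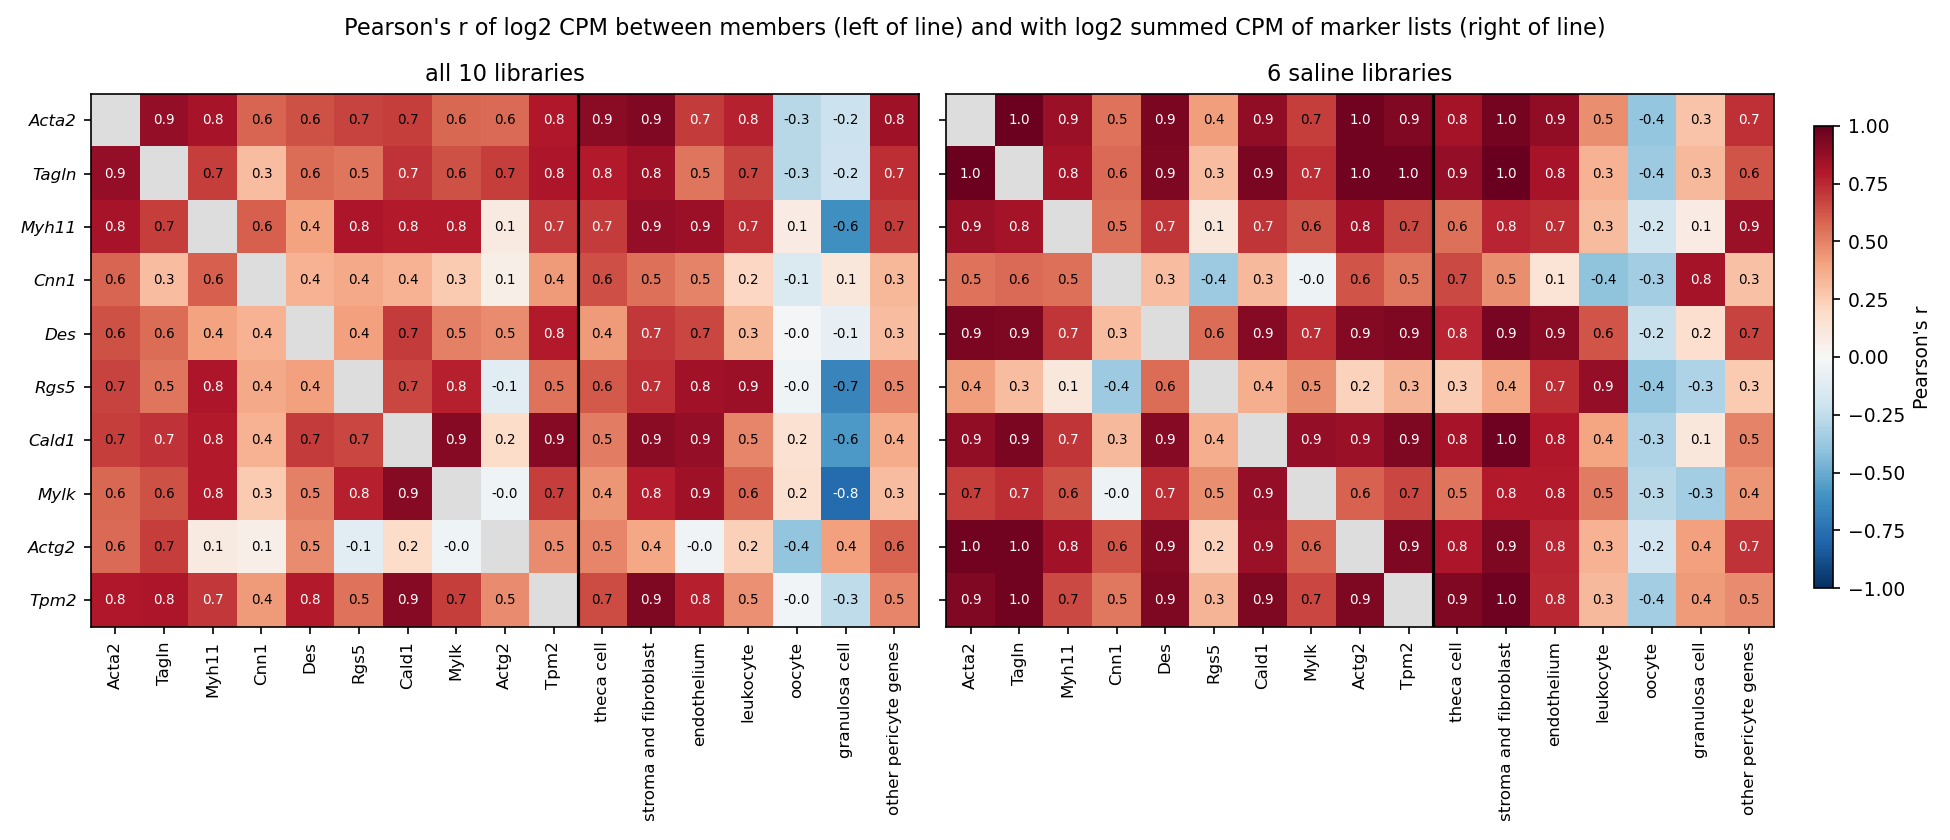
Pearson's r of log2 CPM between the 10 genes (left of the line) and with the log2 summed CPM of 7 marker lists (right of the line), over all 10 libraries and over the 6 saline libraries. Most cells between genes are red, Rgs5 and Cnn1 are pale in saline, and the column of stroma and fibroblast markers is red throughout.

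Marker genes of other ovarian cells moved with these genes. The list for stroma and fibroblasts (10 genes, collagens and matrix proteins among them) summed to 1099, 2189, 88.6 and 795 CPM in NAC 1 to 4. In saline 1 to 6 it summed to 89.3, 477, 98.7, 140, 550 and 982 CPM. The captures took nearly the same order as by the 10 genes, with NAC 2, NAC 1 and saline 6 highest, and the plot of summed levels shows this. All 10 stroma markers were tested, and all 10 had a positive log2 fold change with a median of 1.70. At an unadjusted p under 0.05 in edgeR 4 were higher, and 0 were called. For this list and those below, the shares over all genes tested were 51% positive and 7.82% higher at an unadjusted p under 0.05. In either direction, 16.2% of all genes tested had an unadjusted p under 0.05. Col1a2 and Col3a1, chains of fibrillar collagen, stood at 289 ± 236 and 269 ± 212 CPM in NAC (SD, n = 4) and at 143 ± 140 and 107 ± 97.4 CPM in saline (SD, n = 6). The part of this in the values of the 10 genes was not tested.

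Of 70 relations between a gene and the summed level of a marker list, 19 passed with Pearson's r and 16 with Spearman's rho (permutation tests, adjusted over the 70), and 3 and 2 did so without NAC 2 and NAC 3. The count with Pearson's r was 7 without NAC 2, 12 without NAC 3, saline 2 or saline 3, and between 15 and 22 without any other single library. The stroma list took part in 7 of the 19. Its r was positive with all 10 genes, with a median of 0.815, and 0.939 within saline, where none of the 70 relations passed after adjustment and 15 had an unadjusted exact p under 0.05. Tpm2 followed the stroma sum with r = 0.934 and rho = 0.903 (permutation tests, adjusted p = 0.0049 and 0.0121), and r = 0.946 without the 2 libraries farthest from the median of the stroma sum. Acta2 did so with r = 0.923 and rho = 0.903 (permutation tests, adjusted p = 0.0049 and 0.0121), and r = 0.917 after the same step.

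**Figure D4:**
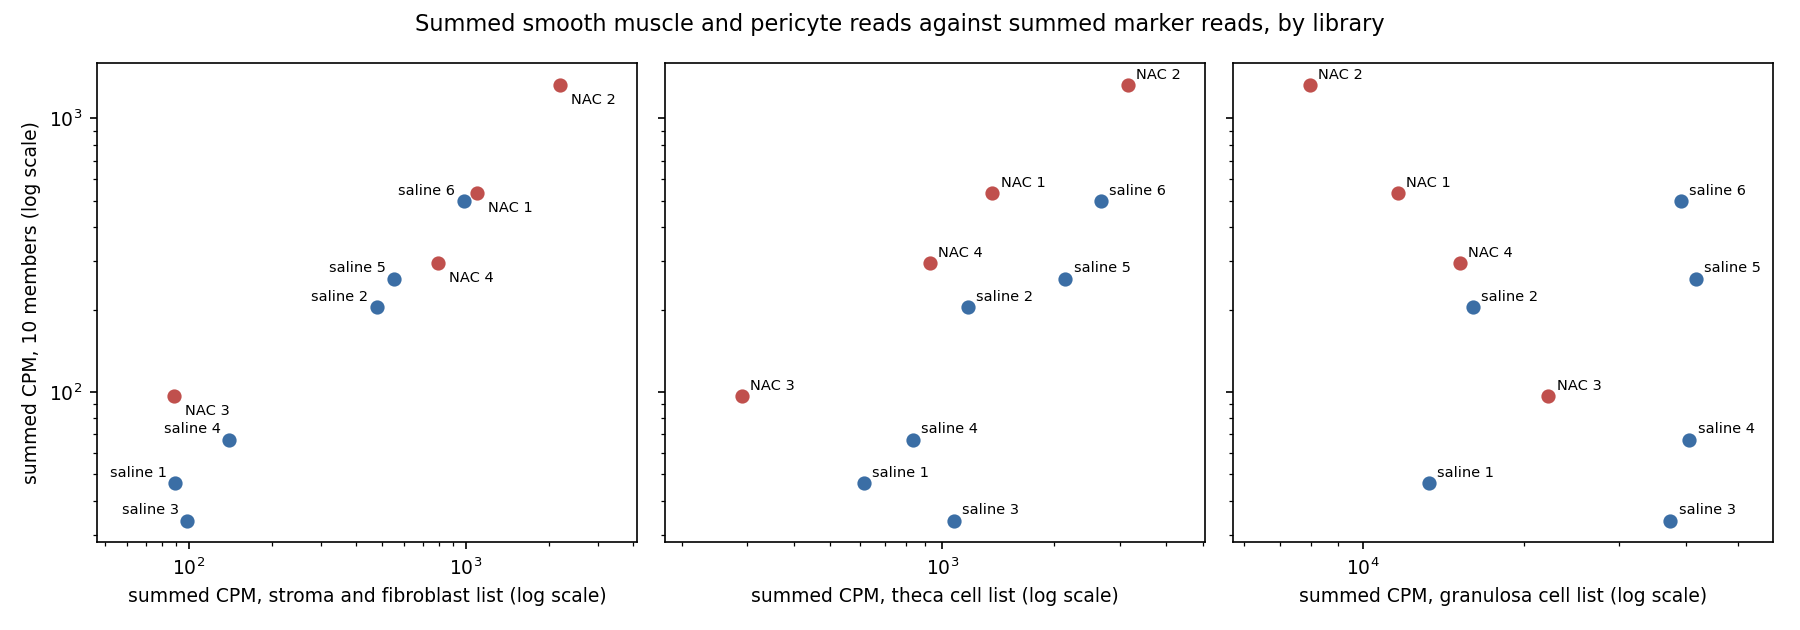
Summed CPM of the 10 genes (vertical, log scale) against the summed CPM of stroma and fibroblast, theca cell and granulosa cell markers (horizontal, log scale) in each saline (blue) and NAC (red) library. The points rise together for stroma from 88.6 to 2189 CPM, rise loosely for theca, and follow no line for granulosa cell markers, where NAC 2 is lowest at 7959 CPM.

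Endothelial markers gave 5 of the 19 relations, with a median r of 0.738, and theca cell markers 2, with a median of 0.630. Endothelial sums were 48.3 to 188 CPM in NAC and 25.7 to 70.7 CPM in saline. Of 8 endothelial markers 4 were tested, 3 positive and 1 negative (median log2 fold change 1.91). At an unadjusted p under 0.05 in edgeR 3 were higher and 0 lower, and 0 were called. Pecam1, an endothelial adhesion molecule, was at 40.4 ± 15.3 CPM in NAC (SD, n = 4) and 12.3 ± 3.51 CPM in saline (SD, n = 6), while Egfl7 was at 17.7 ± 12.3 and 21.5 ± 5.29 CPM. Rgs5 had its highest r with leukocyte markers (r = 0.858, rho = 0.816; permutation tests, adjusted p = 0.0120 and 0.0335), 0.729 without the 2 libraries farthest from the median of that sum. With endothelial markers it had r = 0.837 and rho = 0.841 (permutation tests, adjusted p = 0.0130 and 0.0265), and 0.639 after the same step. Leukocyte markers summed to at most 86.0 CPM in NAC and 21.0 CPM in saline, none of the 7 passed the filter, and all 7 were at 0 in NAC 3. Theca markers summed to 290.0 to 3151 CPM in NAC and 615 to 2663 CPM in saline. Of 8 theca markers 6 were tested, 3 positive and 3 negative (median log2 fold change 0.08), with 2 higher at an unadjusted p under 0.05, and edgeR called 0. Hsd3b1, a steroid dehydrogenase, was at 1158 ± 1163 CPM in NAC and 1252 ± 743 CPM in saline, and Ptch1, the hedgehog receptor, at 130.1 ± 27.6 and 49.7 ± 30.8 CPM. In NAC 2, Hsd3b1 alone held 2822 of the 3151 CPM of the theca sum. Not all other tested theca markers were highest in NAC 2, and Ptch1 was at 121 CPM there and 168 CPM in NAC 1.

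Oocyte and granulosa cell markers did not follow the 10 genes in the same way. No relation with the oocyte list passed, and the median r was -0.04. Oocyte sums were 196 to 1276 CPM in NAC and 1.33 to 1689 CPM in saline. Of 10 oocyte markers 9 were tested, 7 positive and 2 negative (median log2 fold change 1.03). At an unadjusted p under 0.05 in edgeR 0 were higher and 0 lower. For granulosa markers the median r was -0.23, and 1 relation passed with Pearson's r, Mylk at r = -0.766 and rho = -0.685 (permutation tests, adjusted p = 0.0303 and 0.116), with r = -0.635 without the 2 libraries farthest from the median of the granulosa sum. Within saline the median r with granulosa markers was 0.227, positive for 8 of 10 genes, and Mylk had r = -0.350. Inha, the inhibin alpha subunit, was at 6315 ± 2599 CPM in NAC (SD, n = 4) and 23338 ± 11363 CPM in saline (SD, n = 6), and was lowest in NAC 2. Serpine2, a protease inhibitor, was at 6218 ± 4275 CPM in NAC and 4717 ± 980 CPM in saline. All 11 granulosa markers were tested, 3 positive and 8 negative (median log2 fold change -0.76), and edgeR called 0. At an unadjusted p under 0.05, 4 were lower, against 16.2% of all genes tested in either direction. NAC 2, the capture highest in the 10 genes, was thus also highest in stroma, theca (mostly Hsd3b1), endothelial and leukocyte sums. It was lowest in granulosa sum, and the part of these sums in its values was not tested.

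Of 18 other contractile and thin-filament genes 16 were tested, 11 with a positive and 5 with a negative log2 fold change (median 0.17); 1 had an unadjusted p under 0.05, with NAC higher, and edgeR called 0. This was Ppp1r12a, the targeting subunit of myosin phosphatase, at 180 ± 48.6 CPM in NAC and 89.9 ± 15.8 CPM in saline (log2 fold change 1.01 ± 0.26, SE; adjusted p = 0.0970 in edgeR). DESeq2 called it (1.04, adjusted p = 0.00991), as did limma-voom with sample weights (0.96, adjusted p = 0.0400), and its adjusted p over all alternatives reached 0.664. All 4 NAC libraries exceeded all 6 saline libraries for Ppp1r12a, a pattern seen in 1.96% of all genes tested. Ppp1r12a was named here for its small p, so this pattern is no separate support. Tpm1, the other major muscle tropomyosin gene, was at 287 ± 201 CPM in NAC and 189 ± 40.7 CPM in saline, and Smtn, smoothelin, at 44.8 ± 38.2 and 76.9 ± 29.6 CPM. Flna, the actin cross-linker filamin A, was at 137 ± 65.8 CPM in NAC and 193 ± 64.4 CPM in saline.

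Genes upstream of contraction and of smooth muscle transcription were split. Of 12 genes of the list of SRF, myocardin family members and kinases 11 were tested, 6 positive and 5 negative (median 0.33); 2 were higher at an unadjusted p under 0.05 and edgeR called 0. These were the kinases Rock2 (146 ± 107 CPM in NAC, 62.7 ± 21.5 CPM in saline) and Rock1 (89.6 ± 28.9 and 45.3 ± 13.5 CPM). Myocd, the coactivator myocardin, was at 28.4 ± 21.0 and 13.9 ± 10.8 CPM. Fhl2, a LIM-domain cofactor, was at 79.9 CPM in NAC 2 and at most 16.6 CPM in the other NAC libraries.

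The non-muscle actins had negative fold changes, which passed the test under some settings but not in edgeR with its default filter. All 10 non-muscle genes were tested, 3 positive and 7 negative (median -0.48), and edgeR called 0. At an unadjusted p under 0.05, 2 were higher and 3 lower, against 16.2% of all genes tested in either direction. Actb and Actg1, the cytoplasmic actins, were at 1709 ± 655 and 797 ± 337 CPM in NAC (SD, n = 4) and at 3548 ± 1256 and 1939 ± 695 CPM in saline (SD, n = 6). Their log2 fold changes were -1.05 ± 0.36 and -1.29 ± 0.37 (SE; adjusted p = 0.181 and 0.116 in edgeR). Actg1 was called lower in NAC by DESeq2 (adjusted p = 0.0211; 0.00251 without NAC 2), with voom weights (adjusted p = 0.0199) and in edgeR without the low-count filter (adjusted p = 0.0181), and Actb with voom weights (adjusted p = 0.0342). Over all alternatives run, the adjusted p ranged up to 0.670 for Actg1 and 0.673 for Actb, both in edgeR with the replicate number as a block. Tmsb4x, the actin-sequestering thymosin beta 4, was at 186, 940, 16.1 and 157 CPM in NAC 1 to 4 and at 13.8 to 127 CPM in saline. Tpm4, a non-muscle tropomyosin, had its high NAC mean from NAC 2, and its log2 fold change of 1.09 was -0.0039 without that library.

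Other pericyte genes followed Rgs5 only in part. Of 12 listed, 5 were tested, 3 positive and 2 negative (median 0.79), with 1 higher and 1 lower at an unadjusted p under 0.05, and edgeR called 0. Abcc9, a potassium channel subunit of mural cells, was at 20.2, 51.2, 0 and 2.69 CPM in NAC 1 to 4, and at most 6.67 CPM in saline. Heyl, a Notch target that took a large share of this list's reads, was at 67.8 ± 39.9 CPM in NAC and 133 ± 34.8 CPM in saline. Pdgfrb, the receptor that recruits pericytes, was at 22.1 ± 21.0 and 14.4 ± 10.1 CPM, and Mcam at 13.1 ± 20.2 and 7.45 ± 6.90 CPM. By library, Mcam was at 1.44, 43.0, 0 and 8.06 CPM in NAC 1 to 4. Among NAC libraries, Abcc9 and Mcam were highest in NAC 2, as Rgs5 was, while Heyl and Pdgfrb were highest in NAC 1. Vtn was at 0 in all 10 libraries. The list summed to 64.4 to 250 CPM in NAC and 96.5 to 219 CPM in saline. Its sum gave 2 of the 19 relations that passed with Pearson's r, with Acta2 (r = 0.847) and Tagln (r = 0.735). Without the 2 libraries farthest from the median of the sum, r was 0.488 and 0.791. Rgs5 had r = 0.486 with it (permutation test, adjusted p = 0.265), and 0.265 within saline.

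The genes with the most similar profile to each of the 10, by Pearson's r of log2 CPM over the 10 libraries, were chosen for that likeness and are described without a test. For Acta2 they were Col1a2 (r = 0.975), Col4a2 (0.973) and Fam184a (0.964), and r was 0.948, 0.958 and 0.965 without NAC 2 and NAC 3. Tpm2 was closest to Sparc (r = 0.952), Col3a1 (0.944) and Nrp1 (0.935), of which the first is a matrix-binding glycoprotein and the second a fibrillar collagen. Tagln was closest to Lhfp (0.906), Spns2 (0.893) and Enpep (0.878). Myh11 was closest to Hs6st2 (0.967), Sptbn1 (0.940) and Sparcl1 (0.939). Cald1 had Grb10 (0.951), Zufsp (0.941) and Prss35 (0.937), and Mylk had Ccdc18 (0.972), the galectin gene Lgals1 (0.968) and 2810474O19Rik (0.959). Rgs5 had Mipol1 (0.958), Zfp62 (0.938) and the intermediate filament gene Vim (0.926), the last with r = 0.777 without NAC 2 and NAC 3. Des had Tbc1d12 (0.882), Gucd1 (0.851) and Sparc (0.838). Cnn1 had Foxo3 (0.893), Prdx4 (0.892) and Immt (0.886), and Actg2 had Dchs1 (0.954), Slc6a6 (0.866) and Uba7 (0.849).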

How the data were processed

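The authors deposited 1 table per library with estimated counts, TPM and transcript lengths per gene, and the submitters' processing notes name Salmon and GRCm38; the version and annotation were not given in the sources used here. Rows without a gene symbol (1548 per library, 0.496% to 0.638% of reads) were left out. Estimated counts were rounded and tested with edgeR 4.0.16 in R 4.3.3 (quasi-likelihood, robust, TMM, default low-count filter, 10945 genes), Benjamini-Hochberg adjustment over all genes and a call under 0.05. On simulated data this recovered 1% of genes changed by 1 on the log2 scale and 70% of those changed by 3. Correlations used log2 CPM (prior count 2) with two-sided permutation tests (100000 resamples; all 720 orders within saline). The 10 genes and the gene lists were chosen with earlier results of these data known, and 1 listed gene is not reported here. Named companions were the up to 4 tested genes of each list with the smallest p, the 2 most abundant of each marker list and the 3 genes of highest r. DESeq2 1.42.0, limma 3.58.1, other scalings and filters, depth and left-out libraries were alternatives. Promoters came from RefSeq (GRCm38.p6). Group replicate numbers did not pair libraries.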

Additional observations from a re-analysis of the deposited data

Results flagged for a closer look

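Single captures stood apart from their group in 13 of 80 groups of values examined, by Dixon's rule on the gap to the nearest library. For independent, normally distributed values chance alone meets this rule in about 1 in 20. These CPM include zeros and covary between genes, so the count cannot be set against that rate. In 5 of the 13 the capture was NAC 2: Myh11 at 201 CPM (other NAC libraries 0 to 31.7), Rgs5 at 111 CPM (0 to 5.77), Rock2 at 305 CPM (73.6 to 105), Fhl2 at 79.9 CPM (8.05 to 16.6) and Tpm4 at 641 CPM (74.3 to 155). Saline 6 stood apart for 3 smooth muscle genes, Tagln at 20.9 CPM (other saline libraries 0 to 7.69), Myh11 at 14.7 CPM (0.901 to 5.18) and Cnn1 at 18.2 CPM (0 to 6.35). Rgs5 was set apart in saline 5 at 10.8 CPM (0 to 3.46). NAC 1 stood apart for Actg2 at 8.66 CPM, where the other NAC libraries were at 0, and for Heyl at 127 CPM (41.0 to 54.8). The oocyte marker sum was 1689 CPM in saline 4 (1.33 to 605 in the other saline libraries). Saline 1 held 1340324 estimated reads, against 2067726 to 2488408 in the other saline libraries.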

How the results depend on the processing

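The number of genes called, 8 in edgeR, was the value that moved most with the processing: 441 in DESeq2, 476 with voom weights, 226 without a filter, 51 after thinning to the shallowest library (where none of the 10 genes passed the filter), 42 with genes detected as a covariate, 2 without NAC 2 and 3, and 360 in DESeq2 without NAC 2. Leaving out 1 library gave 1 to 58. Of the 10 genes, 3 were called in DESeq2, which gave no adjusted p for Cnn1, Rgs5 and Actg2, and 1 with voom weights. In edgeR 0 were called with any 1 library left out. There the filter kept 6 of the 10 without saline 5 or 6 (Myh11 not tested without saline 6), 8 without saline 2, 9 without saline 3 or 4 and 10 otherwise. Their median log2 fold change was 0.78 to 2.05 with 1 library left out (the latter over 6 genes, without saline 6) and 0.69 in DESeq2 without NAC 2. Replicate numbers did not pair libraries (correlations of same-numbered deviations -0.0081, 0.0105, 0.0093 and 0.196); with the replicate number as a block, 1 gene was called, 0 of the 10. Pairs of genes passing with Pearson's r went from 11 to 7 without NAC 2 and 3, 0 in saline alone and 3 to 10 with 1 library left out, and relations to markers from 19 to 3, 0 and 7 to 22. Log2 fold changes turned negative for Cnn1 (-0.087) and Mcam (-0.48) with voom weights, for Acta2 (-0.23), Cnn1 (-0.037), Pdgfrb (-0.25) and Mcam (-0.25) on log2(TPM + 0.1), and for Mcam (-0.16) with the covariate. Without NAC 2 and 3 this held for Acta2 (-0.039), Tpm4 (-0.082) and Mcam (-0.66). Without NAC 2 it held for Acta2 (-0.31), Cnn1 (-0.084), Tpm4 (-0.0039) and Mcam (-0.84) in edgeR and for Acta2 (-0.51), Cnn1 (-0.15) and Mcam (-0.86) in DESeq2; Des turned without NAC 4 (-0.10) or saline 3 (-0.05). The highest values with 1 library left out were 1.65 (Acta2), 1.29 (Cnn1), 0.42 (Des), 1.31 (Tpm4) and 1.20 (Mcam). The cause was not tested. NAC 3 held 12 reads of the 10 genes, and levels under 24.2 CPM could not be told from 0 there.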

Other observations

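The balance of motor and actin, chosen after its values were seen, is given as values without a test. Of reads assigned to Acta2 and Myh11 together, Myh11 took 23.2% in NAC 1 (44 of 190; 95% Wilson interval 17.7% to 29.7%, counting error only), 38.6% in NAC 2 (98 of 254; 32.8% to 44.7%) and 35.5% in NAC 4 (43 of 121; 27.6% to 44.4%), and NAC 3 had no read of either. In saline 2, 5 and 6, the saline captures richest in Acta2, the share was 10.8% (11 of 102; 6.13% to 18.3%), 3.51% (8 of 228; 1.79% to 6.77%) and 5.58% (33 of 591; 4.00% to 7.74%). In saline 1, 3 and 4 it was 33.3% (5 of 15; 15.2% to 58.3%), 28.6% (2 of 7; 8.22% to 64.1%) and 21.7% (10 of 46; 12.3% to 35.6%). NAC 1 and saline 5 had similar Acta2 levels, 105 and 113 CPM, and Myh11 at 31.7 and 4.10 CPM.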
